A study of Mus musculus with 6 samples.

Results

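The genes described here encode the growth factors of the FGF, IGF and insulin, PDGF and VEGF, EGF and neuregulin, HGF and KIT, angiopoietin and ephrin families, with their receptors, binding proteins and feedback inhibitors. They were picked by a pattern of gene symbols in the array's platform annotation, which uses no measured value but was drawn up with earlier results of these data known. The annotation named 76 such genes, each by 1 feature of the array. Of these, 74 had a value on all 6 arrays and entered the test across 10186 features of the 10500 in the table, while Ereg and Efnb3 had no value on any array. A pair of names matched the symbol rule without belonging to the ligands or receptors, Fgfr1op2 and Egfl6, and both were kept in the counts. The rule did not match the IGF ligand Igf2, which was measured but is not among the 76.

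The study compared cultures of skeletal muscle satellite cells, the stem cells of muscle, taken from hind limbs. The donors were 3 Swiss Webster mice, adult and male, and each gave both cultures, so each group had 3 arrays. Differentiated cultures were myoblasts moved for 72 hours into medium with 10% horse serum and insulin, labelled as 1 mM, and no added bFGF. Proliferating cultures were myoblasts of the same preparations harvested in growth medium with bovine bFGF (FGF2 protein) at 6.6 ng/ml. Both had been derived in bFGF and chick embryo extract, with repeated preplating against fibroblasts, and were grown on gelatin as a mix of myoblast clones from pooled muscles of a mouse. The loss of bFGF, the addition of serum and insulin and the hours in culture changed together, so their parts cannot be told apart. In bulk RNA, fewer cells of a type and less RNA per cell cannot be told apart either.

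As background, these ligands bind receptor tyrosine kinases, which pass the signal through RAS and ERK and through PI3 kinase and AKT. In satellite cells FGF and HGF are known to promote division and to hold back differentiation, while IGF1 promotes both growth and differentiation of muscle cells. Sprouty and Spred proteins restrain the ERK pathway, and heparan sulfate chains on the cell surface help FGFs bind their receptors. Eph receptors and ephrins are both membrane bound and signal between touching cells.

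Values are 1-colour intensities without a unit, with array medians of 0.883 to 0.939 as deposited. Neither label nor file states how they were scaled or which spots were detected. A level of 0.179, the 25th percentile of positive values, served as the mark for dim signals. Differences are log2, differentiated minus proliferating, with the SE of a limma fit in which Benjamini-Hochberg adjustment ran over all features. Because both cultures came from each mouse, adjusted p-values from 2 further limma models are given where they change a call, the random-mouse fit (mouse as a random effect) and the fixed-mouse fit (mouse as a block). Of 7 measured muscle markers, Myod1 had intensities of 86.4, 88.1 and 84 in differentiated cultures of mice 1, 2 and 3, against 154, 146 and 134 in proliferating cultures. Myog had 210, 83.7 and 112, against 142, 18.3 and 44.8, so proliferating replicate 1 already carried a high level of that differentiation factor. Ckm, the creatine kinase of mature muscle, had 51.4, 1 and 47.9, against 7.05, 0.103 and 1.49, so differentiated replicate 2 was below proliferating replicates 1 and 3. Mymk, which is needed for myoblast fusion, had 59.5, 24.1 and 57.4, against 25.9, 2.71 and 12, and was the 1 marker of the 7 called in the random-mouse fit (2.20, limma adjusted p = 0.0414). Myf5, a factor of committed myoblasts, had 74, 13 and 3.15, against 20.7, 21.4 and 11.7. The part of these differences between arrays of a group in the results was not tested.

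By the random-mouse fit, differentiated cultures had more signal for the ligands Fgf9 and Fgf7 and the receptor Fgfr3. By that fit they had less for the receptors Epha2, Ephb6, Epha1, Epha6 and Met and the ligands Efna4, Efnb2 and Vegfc. Without mouse in the model, 0 of the 74 genes passed an adjusted p under 0.05 in limma, where 0.285% of all features were called higher and 1.01% lower. The smallest adjusted p was that of Epha2, 0.0543. At an unadjusted p under 0.05, 4 genes were higher and 11 lower, or 5.41% and 14.9%, against 7.82% and 7.09% of all features. The random-mouse fit in limma called 3 genes higher and 8 lower, or 4.05% and 10.8% of the 74, against 5.07% and 5.28% of all features. The share called higher was near that of the whole array. Without differentiated replicate 1 that fit called 0 of the 8 lower genes, and without proliferating replicate 1 it called Epha2 alone of them. The fixed-mouse fit called 1 gene higher, Fgf9, and 0 lower (0.56% and 0.874% of all features). Groups did not overlap for 6 higher and 11 lower genes, or 8.11% and 14.9% of the 74, against 10.9% and 9.8% of all features. In all 3 mice 16 genes were higher and 18 lower, or 21.6% and 24.3%, against 31% and 18% of all features. The median difference of the 74 genes was 0.18, against 0.20 for all features.

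**Figure D1:**
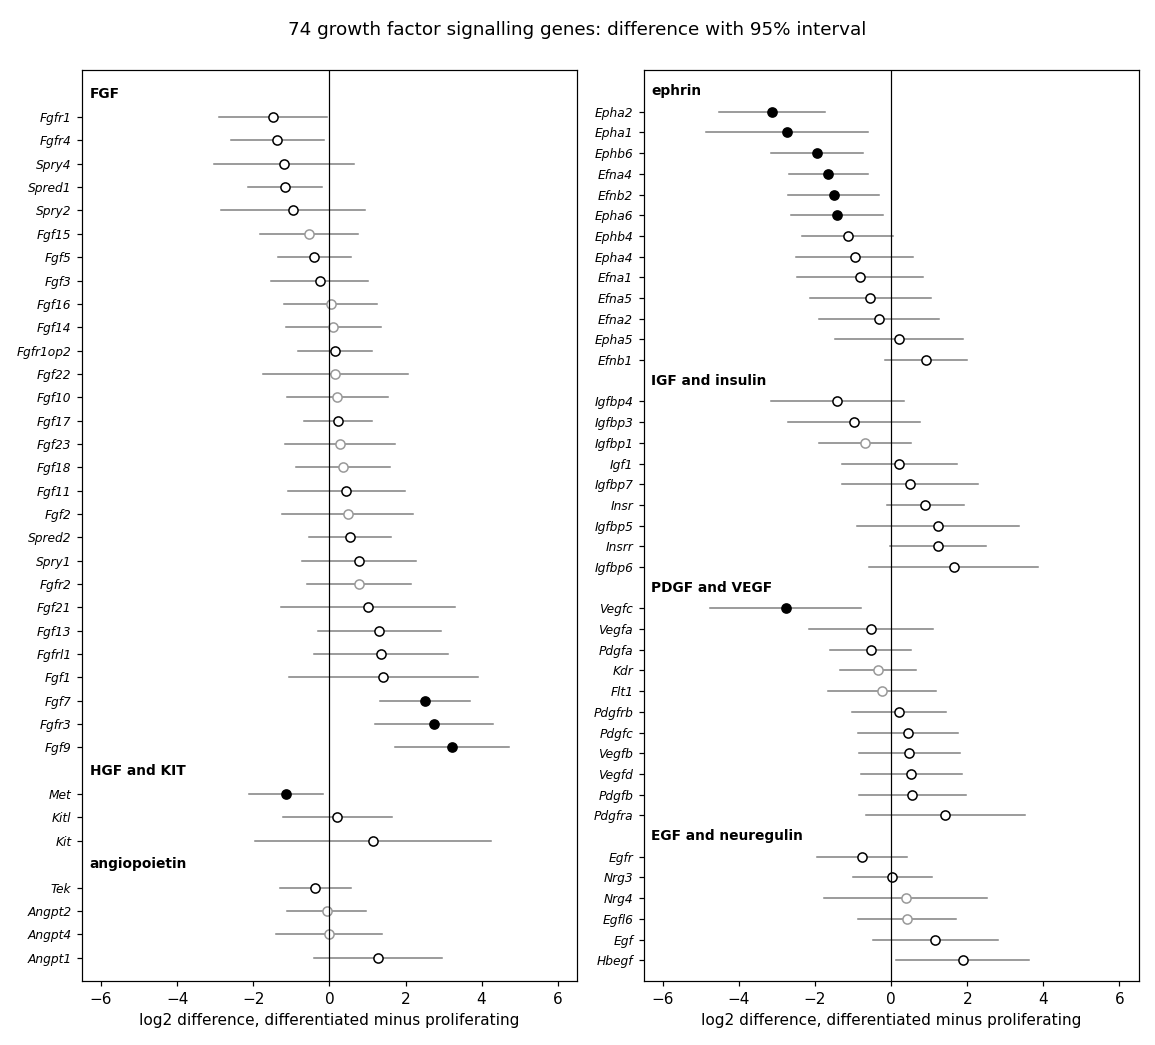
Each point is the log2 difference of 1 of the 74 genes, differentiated minus proliferating, with its 95% interval from the limma fit (3 arrays per group), grouped by family. Filled points are the 3 higher and 8 lower genes called in the random-mouse fit; grey outlines mark the 16 genes dim in both groups, and 11 of the 13 Eph and ephrin genes lie left of 0.

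Among the FGF ligands, Fgf9, a secreted factor of the embryo that acts on mesenchyme and skeletal tissue, stood highest. Fgf9 had intensities of 4.66, 1.06 and 2.05 in differentiated cultures of mice 1, 2 and 3, against 0.308, 0.128 and 0.318 in proliferating cultures. The groups did not overlap, and every differentiated array was above every proliferating one. The difference was 3.22 ± 0.65 (log2, SE, n = 3 per group), or 9.33-fold, with a limma adjusted p of 0.0628, or 0.00555 in the random-mouse fit and 0.0495 in the fixed-mouse fit. Fgf7, the keratinocyte growth factor, is made by mesenchymal cells and acts on epithelia through a splice form of Fgfr2. Its intensities were 0.491, 1 and 0.555 in differentiated cultures, against 0.139, 0.157 and 0.0688 in proliferating cultures, again with no overlap. The difference was 2.51 ± 0.51, with a limma adjusted p of 0.0642, or 0.00713 in the random-mouse fit. All 3 proliferating values of Fgf7 were under the dim mark, so its size rests on dim values, and it was 1.49 on the log2(value + 0.179) scale.

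Fgfr3, 1 of the tyrosine kinase receptors for FGFs, differed in the same direction as Fgf9, a ligand that binds it. It had 1.11, 0.752 and 0.635 in differentiated cultures, against 0.317, 0.0535 and 0.102 in proliferating cultures. The difference was 2.75 ± 0.67 (limma adjusted p = 0.0995, or 0.0127 in the random-mouse fit), with no overlap, and 1.64 with the pseudocount. Fgf7, Fgf9 and Fgfr3 were the 3 genes called higher in the random-mouse fit, and all 3 were also called in each of 11 further random-mouse fits with another floor, scaling or filter or with 1 array left out.

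The promoters of these 3 genes are shown because they are the members that were higher together. They run from 250 bases before to 50 after the annotated start, from RefSeq on GRCm38.p6, and for Fgfr3 the first of 2 listed starts is given. The Fgf9 gene as listed begins upstream of the window shown, at 58070671. Capitals mark the E-box CANNTG, the core bound by myogenic bHLH factors, and the GC box GGGCGG on either strand; an E-box and a GC box adjoin in the Fgfr3 promoter, so they read as 1 run.
Fgf9 promoter, chr14:58072436-58072735, plus strand: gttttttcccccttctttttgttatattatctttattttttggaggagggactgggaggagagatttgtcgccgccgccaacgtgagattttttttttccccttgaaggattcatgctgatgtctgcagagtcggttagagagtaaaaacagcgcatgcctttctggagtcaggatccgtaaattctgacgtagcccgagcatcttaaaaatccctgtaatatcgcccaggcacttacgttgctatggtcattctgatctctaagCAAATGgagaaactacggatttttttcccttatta
Fgf7 promoter, chr2:126034408-126034707, plus strand: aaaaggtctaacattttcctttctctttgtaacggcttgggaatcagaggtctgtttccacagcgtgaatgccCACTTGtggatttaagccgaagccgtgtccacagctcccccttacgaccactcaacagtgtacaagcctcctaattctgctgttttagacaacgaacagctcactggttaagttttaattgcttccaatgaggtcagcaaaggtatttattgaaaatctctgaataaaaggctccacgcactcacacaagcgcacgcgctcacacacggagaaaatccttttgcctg
Fgfr3 promoter, chr5:33721474-33721773, plus strand: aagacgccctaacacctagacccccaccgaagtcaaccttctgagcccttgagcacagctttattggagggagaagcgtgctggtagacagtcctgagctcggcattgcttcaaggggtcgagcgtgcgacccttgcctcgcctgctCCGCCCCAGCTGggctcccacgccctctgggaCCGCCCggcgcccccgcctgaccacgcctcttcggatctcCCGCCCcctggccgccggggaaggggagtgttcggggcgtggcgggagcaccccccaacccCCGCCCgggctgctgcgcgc

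Fgf9 and Fgf7 each held 1 E-box and 0 GC boxes, and Fgfr3 held 1 E-box, of the form CAGCTG, and 4 GC boxes. GC content was 42.7% for Fgf9, 45.7% for Fgf7 and 69.7% for Fgfr3, against a median of 52.7% over 32851 mouse promoters of the same length. CANNTG occurred in 72.3% of those promoters and in 38 of the 61 genes of this group with a listed promoter (62.3%). CAGCTG occurred in 16.3% and in 9 of 61. GGGCGG occurred in 35.7% and likewise in 38 of 61, and TGANTCA, the AP-1 site, in 7.81% and in 2 of 61. These are matches of letters in a short window, counted on both strands. The 32851 promoters include further starts of a gene, whereas each of the 61 genes was counted at its first listed start. The shares are therefore not fully alike.

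The other receptors for FGFs had differences in the opposite direction or none that could be told from the spread. Fgfr1, the main FGF receptor of proliferating myoblasts, had 1.67, 0.389 and 1.54 in differentiated cultures, against 2.83, 2.29 and 3.36 in proliferating cultures. Although the groups did not overlap, its difference of -1.48 ± 0.62 did not pass (limma adjusted p = 0.315, or 0.0722 in the random-mouse fit), and without differentiated replicate 2 it was -0.80. Fgfr4, a receptor of regenerating muscle, had 0.115, 0.0575 and 0.0784, against 0.162, 0.141 and 0.387. It was under the dim mark on most arrays and differed by -1.37 ± 0.54 (limma adjusted p = 0.285). With the pseudocount Fgfr4 differed by -0.60. Fgfrl1, a receptor-like protein without a kinase domain, had 10.9, 2.35 and 10.8, against 1.79, 5.79 and 1.62. It was higher in mice 1 and 3 and lower in mouse 2, with a difference of 1.35 ± 0.76 (limma adjusted p = 0.473). Fgfr2 was dim in both groups.

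Of 14 secreted FGF ligands measured, 7 were dim in both groups (Fgf2, Fgf10, Fgf15, Fgf16, Fgf18, Fgf22 and Fgf23). Fgf2, the cells' own gene for the factor that had been added to growth medium, was among these dim genes in both media. Over all 14 the difference was positive for 11, but for 7 after quantile normalization, so no direction can be given for the ligands as a set. Fgf21, a metabolic hormone that stressed muscle also makes, had 21, 7.88 and 26.9 in differentiated cultures, against 24.2, 1.61 and 13.7 in proliferating cultures. The groups overlapped and the 95% interval ran from -1.26 to 3.30. Fgf1 was at 2.16 on differentiated array 1 and at 0.0624 to 0.325 on the other arrays. Fgf5 and Fgf3 had differences of -0.40 and -0.25, and Fgf17 of 0.22, and none of the 3 passed. The intracellular homologues, which bind sodium channels and are not secreted, were Fgf13, Fgf11 and Fgf14, the last of them dim. Fgf13 had 14.8, 5.01 and 6.44, against 6.58, 1.29 and 3.67, higher in 3 of 3 mice with overlapping groups (limma adjusted p = 0.436).

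**Figure D2:**
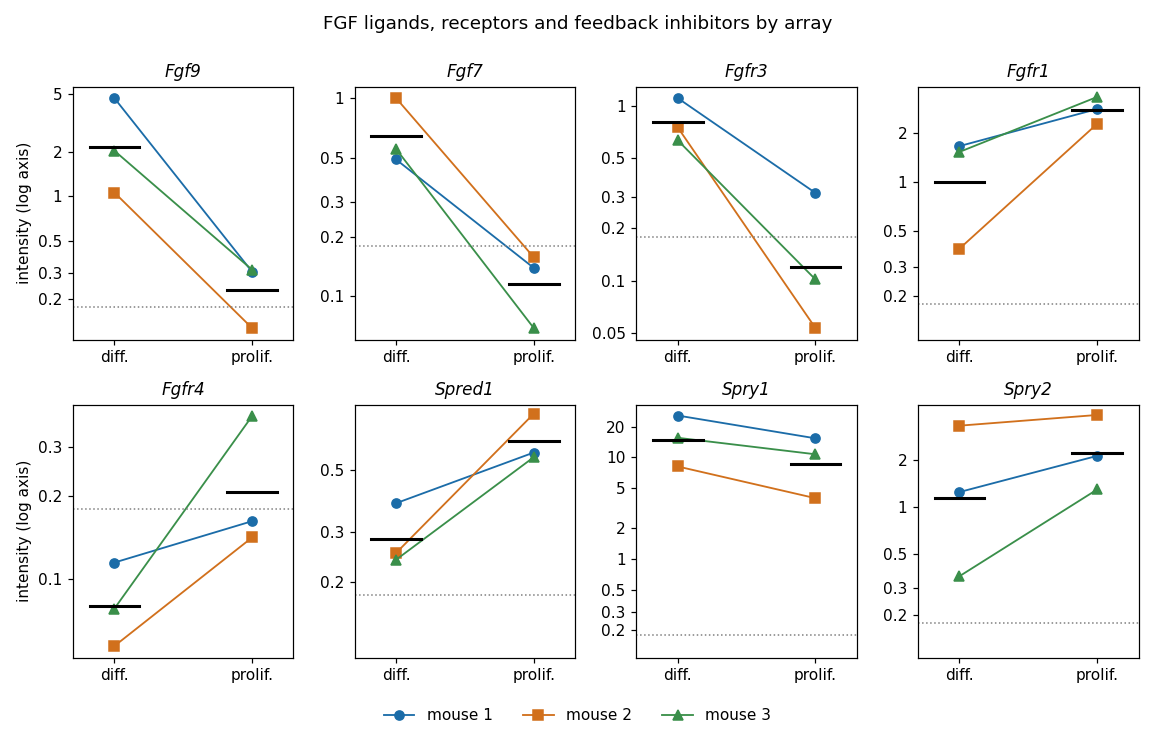
Intensities on a log axis for FGF ligands, receptors and inhibitors, with differentiated (diff.) and proliferating (prolif.) cultures of a mouse joined by a line; black bars are means of log2 values over 3 arrays and the dotted line is the dim mark of 0.179. For Fgf9, Fgf7 and Fgfr3 all differentiated arrays lie above all proliferating ones, whereas for Spry1 and Spry2 the groups overlap.

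Feedback inhibitors of the ERK pathway had differences of both signs and gave 0 calls. Spred1, which blocks RAF activation, had 0.382, 0.253 and 0.24 in differentiated cultures, against 0.579, 0.798 and 0.558 in proliferating cultures, without overlap. Its difference of -1.16 ± 0.42 did not pass (limma adjusted p = 0.255, or 0.0526 in the random-mouse fit). Spry1, known for its part in the return of satellite cells to quiescence, had 25.8, 8.13 and 15.6, against 15.4, 3.96 and 10.7. It was higher in 3 of 3 mice, by 0.77 ± 0.65 (limma adjusted p = 0.662), while mice differed from each other by more than the cultures did. Spry2 had 1.25, 3.35 and 0.358, against 2.14, 3.92 and 1.3, lower in 3 of 3 mice with overlapping groups (difference -0.95, 95% interval -2.85 to 0.94). Spry4 differed by -1.19 and Spred2 by 0.54, and neither passed.

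Eph receptors and ephrins were 6 of the 8 genes called lower in the random-mouse fit, 6 of the 11 lower without overlap, 8 of the 18 lower in all 3 mice and 11 of the 32 with negative differences. Of 13 measured, 11 had negative differences, against 3931 of 10186 features. Lower without overlap were 6 of the 13, against 9.8% of all features, and 8 were lower in all 3 mice, against 18%. The median difference of the 13 was -1.15, against 0.20 for all features. After quantile normalization, which moved the median of all features by -0.17, 12 of 13 were negative and 8 were again lower in all 3 mice. Of the 13, the random-mouse fit called 6 lower and 0 higher, where 5.28% of all features were called lower. After quantile normalization it called Efna4, Epha2 and Ephb6 of these 6, and Epha1, Epha6 and Efnb2 did not pass.

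Epha2, a receptor for A-type ephrins that is under ERK control in other cell types, had the largest difference of the 13. Its intensities were 0.449, 0.399 and 0.828 in differentiated cultures, against 7.3, 6.59 and 2.07 in proliferating cultures. Each differentiated array was far below each proliferating one, and mouse 3 showed the smallest gap. The difference was -3.13 ± 0.60, an 8.76-fold lower level (limma adjusted p = 0.0543, or 0.0122 in the random-mouse fit). Of 6 random-mouse fits with 1 array left out, 5 called it. Ephb6, a receptor without kinase activity, had 0.151, 0.0766 and 0.205, against 0.717, 0.346 and 0.558. No overlap was seen, and the difference was -1.96 ± 0.53 (limma adjusted p = 0.126, or 0.0148 in the random-mouse fit), or -1.14 with the pseudocount. Efna4, a GPI-anchored ligand of EphA receptors, had 0.308, 0.187 and 0.376, against 1.05, 0.717 and 0.891. That difference was -1.65 ± 0.45, again with no overlap (limma adjusted p = 0.128, or 0.0168 in the random-mouse fit). With 1 array left out the random-mouse fit called Ephb6 in 4 of 6 fits and Efna4 in 3 of 6.

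The promoters of Epha2, Ephb6 and Efna4, the lower genes with the smallest p, are shown for comparison with those above, with the same capitals and build. The Ephb6 gene as listed begins upstream of the window shown, at 41603834.
Epha2 promoter, chr4:141300971-141301270, plus strand: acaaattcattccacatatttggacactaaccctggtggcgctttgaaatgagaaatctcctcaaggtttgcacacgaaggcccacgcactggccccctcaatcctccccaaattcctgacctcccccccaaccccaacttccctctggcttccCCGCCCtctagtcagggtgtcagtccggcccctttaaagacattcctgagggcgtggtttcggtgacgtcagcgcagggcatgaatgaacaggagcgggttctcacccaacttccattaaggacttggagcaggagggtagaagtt
Ephb6 promoter, chr6:41605261-41605560, plus strand: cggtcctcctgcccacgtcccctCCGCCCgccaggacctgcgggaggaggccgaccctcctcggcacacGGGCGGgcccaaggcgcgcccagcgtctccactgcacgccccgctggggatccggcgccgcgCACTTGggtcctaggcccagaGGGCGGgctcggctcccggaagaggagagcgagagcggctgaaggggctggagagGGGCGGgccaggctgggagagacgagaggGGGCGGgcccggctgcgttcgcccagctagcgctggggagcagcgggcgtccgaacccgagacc
Efna4 promoter, chr3:89337979-89338278, minus strand: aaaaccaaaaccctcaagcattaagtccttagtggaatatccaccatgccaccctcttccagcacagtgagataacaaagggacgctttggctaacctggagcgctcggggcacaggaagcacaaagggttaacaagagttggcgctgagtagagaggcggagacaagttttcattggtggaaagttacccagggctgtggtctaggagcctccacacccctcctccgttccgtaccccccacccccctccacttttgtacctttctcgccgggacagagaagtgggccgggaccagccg

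Epha2 held 1 GC box and 0 E-boxes, Ephb6 held 5 GC boxes and 1 E-box, and Efna4 held 0 of either. Their GC contents were 54.7%, 76.3% and 55.7%. TGANTCA was in 0 of these 3 and in 0 of the 3 promoters shown before.

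Epha1, Epha6 and Efnb2 were also called lower in the random-mouse fit (limma adjusted p = 0.0444, 0.0365 and 0.0487). As for all 8 genes that it called lower, Epha2, Ephb6 and Efna4 among them, neither of the other fits called them. Epha1 had 0.133, 0.396 and 0.099 in differentiated cultures, against 3.56, 1.4 and 0.302 in proliferating cultures. The proliferating arrays of Epha1 spread widely, so that the lowest of them, in mouse 3, lay under the differentiated value of mouse 2. Epha6 had 0.194, 0.521 and 0.311, against 0.618, 1.27 and 0.768, with no overlap and mouse 2 high in both cultures. Efnb2, a transmembrane ligand of EphB receptors, had 0.0945, 0.125 and 0.138, against 0.395, 0.176 and 0.546. Its differentiated values were all under the dim mark, so the size of its difference, -1.51 or -0.83 with the pseudocount, rests on dim values. These 3 calls were less steady, since with 1 array left out the random-mouse fit called Epha1 and Epha6 in 1 of 6 fits each and Efnb2 in 2 of 6.

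The other Eph and ephrin genes did not pass. Ephb4, the receptor of Efnb2 in vessels, had 0.436, 0.16 and 0.382, against 0.896, 0.622 and 0.518, with no overlap and a difference of -1.15 ± 0.52 (limma adjusted p = 0.355, or 0.0935 in the random-mouse fit). Epha4 was lower in 3 of 3 mice, by -0.95 ± 0.67. Efna1, Efna5 and Efna2 had differences of -0.82, -0.55 and -0.32, each with overlapping groups. Efnb1 was the exception, with 0.525, 0.228 and 0.451 in differentiated cultures, against 0.179, 0.182 and 0.245 in proliferating cultures. Efnb1 was higher in 3 of 3 mice (0.92 ± 0.47, limma adjusted p = 0.418), and Epha5 had a difference of 0.21 with a 95% interval of -1.48 to 1.90.

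**Figure D3:**
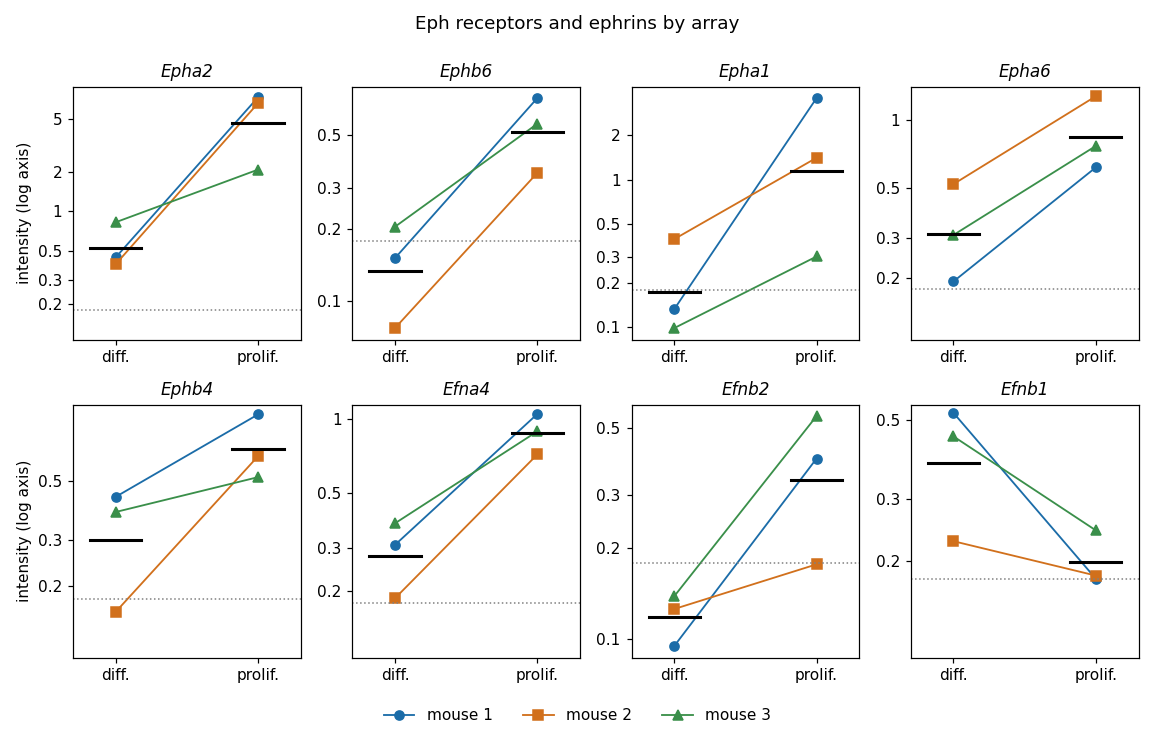
Intensities on a log axis for 5 Eph receptors and 3 ephrins, differentiated (diff.) left of proliferating (prolif.), with lines joining the cultures of a mouse, bars for means of log2 values over 3 arrays and a dotted line at the dim mark of 0.179. For Epha2, Ephb6, Epha6, Ephb4, Efna4 and Efnb2 all differentiated arrays lie below all proliferating ones, for Epha1 the groups overlap, and Efnb1 runs the other way.

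Met, the receptor for HGF that marks activated satellite cells, was lower in differentiated cultures of every mouse. Its intensities were 1.74, 1.56 and 2.1 in differentiated cultures, against 3.73, 3.01 and 5.31 in proliferating cultures. The groups did not overlap and both were well above the dim mark. The difference was -1.13 ± 0.42, or 2.19-fold lower, with a limma adjusted p of 0.266, or 0.0449 in the random-mouse fit, and 0 of 6 random-mouse fits called it with 1 array left out. Kit, the receptor for stem cell factor, was at 1.86 on differentiated array 2 and at 0.0204 to 0.138 on the other arrays. Its ligand Kitl had a difference of 0.21 with a 95% interval of -1.23 to 1.65.

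In the PDGF and VEGF family, Vegfc, which drives growth of lymphatic vessels, differed most. Vegfc had 0.123, 0.236 and 0.252 in differentiated cultures, against 0.932, 5.41 and 0.465 in proliferating cultures. No values overlapped, though proliferating array 2 was far above the other two. The difference was -2.78 ± 0.86 (limma adjusted p = 0.181, or 0.0398 in the random-mouse fit), and -1.76 without proliferating replicate 2. With 1 array left out the random-mouse fit called Vegfc in 2 of 6 fits, and after quantile normalization it did not call it. Among the other ligands, Vegfa, the hypoxia-regulated angiogenic factor, had 3.55, 0.891 and 4.86, against 5.77, 2.16 and 3.75, and Pdgfa had 7.42, 6.31 and 4.39, against 6.7, 12.9 and 7.22. Both overlapped between groups, with differences of -0.54 and -0.53. Nor did Pdgfb, Pdgfc, Vegfb or Vegfd pass, at 0.56, 0.44, 0.47 and 0.53. Pdgfra, the PDGF receptor of fibro-adipogenic cells, had 0.15, 0.764 and 0.421, against 0.0578, 0.494 and 0.0877. It was higher in 3 of 3 mice by 1.42 ± 0.91, with overlap (limma adjusted p = 0.526). Pdgfrb, the pericyte receptor, had a difference of 0.21 (95% interval -1.03 to 1.44), and the VEGF receptors Flt1 and Kdr were dim in both groups.

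Hbegf, a heparin-binding ligand of the EGF receptor, had 14, 14.2 and 18.7 in differentiated cultures, against 7.43, 8.55 and 1.18 in proliferating cultures. All differentiated arrays were higher, and proliferating array 3 was the lowest by far. The difference of 1.88 ± 0.75 did not pass (limma adjusted p = 0.295, or 0.0974 in the random-mouse fit), and it was 0.82 without mouse 3. Egfr, the receptor itself, had 0.339, 0.979 and 0.393, against 0.946, 0.959 and 0.712, with overlap through mouse 2 (difference -0.77 ± 0.52, limma adjusted p = 0.554). Egf had 0.365, 0.0902 and 0.186, against 0.192, 0.0667 and 0.0434, with its proliferating mean under the dim mark. Its difference was 1.15, or 0.47 with the pseudocount, and did not pass (limma adjusted p = 0.513). Nrg3, a neuregulin, had a difference of 0.03 with a 95% interval of -1.01 to 1.07, and Nrg4 and Egfl6 were dim.

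Genes of the IGF and insulin family gave 0 calls in any of the 3 limma fits among the 9 measured that matched the symbol rule. Over the whole array, the random-mouse fit called 5.07% of features higher and 5.28% lower. In the fit without mouse, 0 of the 9 had an unadjusted p under 0.05, against array shares of 7.82% (higher) and 7.09% (lower). With only 9 genes, these counts of 0 cannot set the family apart from the array. Insr, the insulin receptor, had 0.367, 0.174 and 0.262 in differentiated cultures, against 0.143, 0.135 and 0.134 in proliferating cultures. Higher in 3 of 3 mice with no overlap, it differed by 0.90 ± 0.44 (limma adjusted p = 0.39), and all its proliferating values were under the dim mark. Its relative Insrr differed by 1.24 ± 0.55, also without overlap and from dim values. Igf1 had 0.496, 0.4 and 0.845, against 0.524, 0.199 and 1.03, and no direction was kept when arrays were left out (-0.42 to 0.77). Igf2, a further IGF ligand, did not match the rule and was counted with the processing and binding partners below. It had 129, 112 and 96.5 in differentiated cultures, against 126, 35 and 53.4 in proliferating cultures. Igf2 was higher in 3 of 3 mice with overlapping groups, by 0.86 ± 0.55. It did not pass (limma adjusted p = 0.522, or 0.201 in the random-mouse fit). Igfbp5, the IGF binding protein typical of differentiating myoblasts, had 5.89, 0.628 and 2.26, against 1.04, 0.321 and 1.92, higher in 3 of 3 mice but overlapping (1.23 ± 0.93, limma adjusted p = 0.607). Igfbp3 ran the other way in 3 of 3 mice, with 6.85, 1.78 and 11.3, against 8.58, 6.4 and 19.4 (-0.98 ± 0.76, limma adjusted p = 0.618). The binding proteins Igfbp4, Igfbp6 and Igfbp7 had differences of -1.41, 1.65 and 0.49, and Igfbp1 was dim in both groups. For Igfbp6 the intensity of proliferating replicate 1 was -0.0657 and was set to the floor, which gave a difference of 4.17 in mouse 1. With the pseudocount Igfbp6 differed by 0.72, Igfbp4 by -0.70, Insr by 0.48 and Insrr by 0.55.

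**Figure D4:**
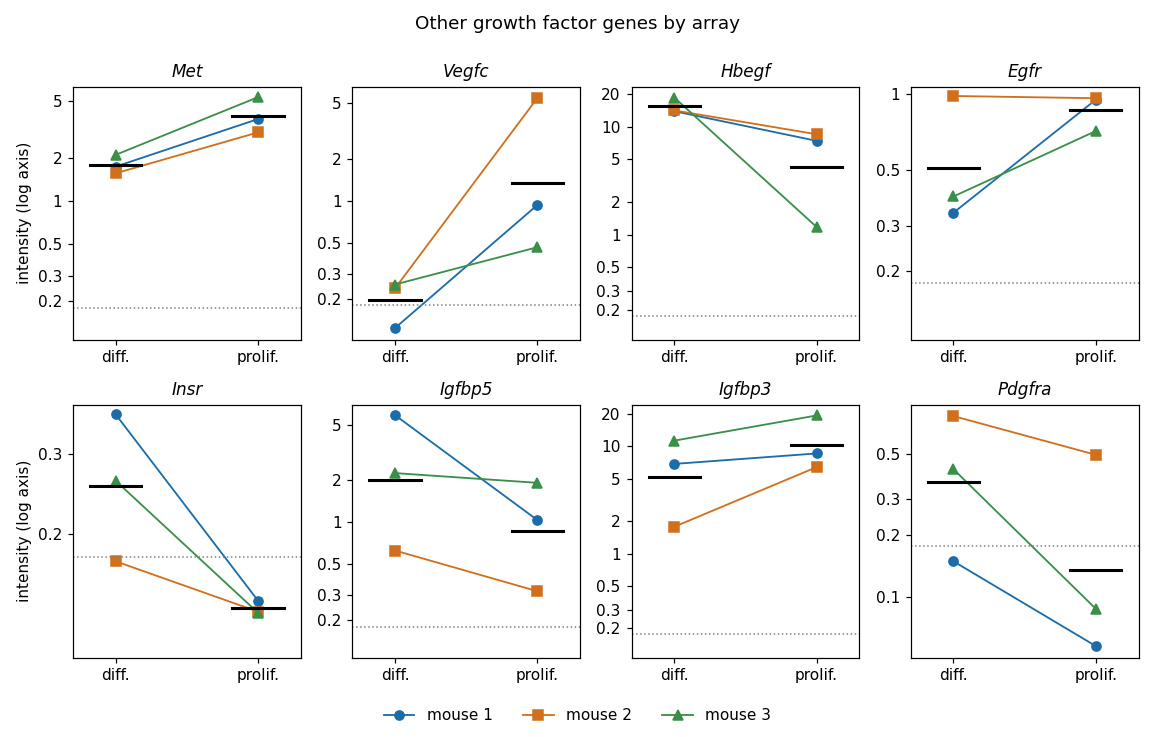
Intensities on a log axis for Met, Vegfc, Hbegf, Egfr, Insr, Igfbp5, Igfbp3 and Pdgfra, differentiated (diff.) left of proliferating (prolif.), with lines joining the cultures of a mouse, bars for means of log2 values over 3 arrays and a dotted line at the dim mark of 0.179. Met and Vegfc are lower on every differentiated array and Hbegf and Insr higher, while the groups overlap for the other genes.

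The angiopoietins gave no call. Angpt1, a ligand of the receptor Tek, had 0.72 on differentiated array 1 and 0.056 to 0.155 elsewhere, and Angpt2 and Angpt4 were dim in both groups. Tek had a difference of -0.37, with a 95% interval of -1.31 to 0.57. Fgfr1op2, which is no FGF receptor, had 4.88, 5.79 and 5.07, against 3.47, 6.31 and 4.74, with a difference of 0.16 ± 0.42.

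Genes that carry or answer these signals were counted in lists. Of 17 measured ERK target and feedback genes, 3 fell and 0 rose (limma, adjusted p under 0.05). These were the cyclin Ccnd1, the AP-1 subunit Fosl1 and the urokinase receptor Plaur. Their differences were -3.79, -3.49 and -3.17. Over all features, 1.01% were called lower and 0.285% higher. With no adjustment (limma p under 0.05), 4 of the 17 were higher and 4 lower, against 7.82% and 7.09% of all features. Fosl1 had 0.351, 0.15 and 0.591 in differentiated cultures, against 5.62, 3.54 and 2.22 in proliferating cultures. In the fixed-mouse fit Fosl1 and Plaur did not pass (limma adjusted p = 0.0664 and 0.079). Fos, an immediate early AP-1 subunit, had 4, 0.324 and 4.85, against 0.516, 0.13 and 0.33, and was called higher in the random-mouse fit alone (2.72 ± 1.05, limma adjusted p = 0.0439). The median of the list was -0.42, with 8 positive and 9 negative differences. In all 3 mice 6 of the 17 were higher and 6 lower, against 31% and 18% of all features.

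Of 21 genes of the intracellular cascade, 0 passed in limma, in the random-mouse fit too. At an unadjusted p under 0.05 there were also 0, where 7.82% of all features were higher and 7.09% lower. Akt2, the gene of that list with the smallest p, had a difference of 0.96 (limma adjusted p = 0.397). In that list 17 genes had positive differences, with a median of 0.26. Over all features 6255 of 10186 differences were positive, with a median of 0.20, so the median of the list was near that of the whole array. In all 3 mice 7 of the 21 were higher and 0 lower, against 31% and 18% of all features. Of 13 heparan sulfate genes, 0 passed without mouse. In the random-mouse fit Sdc2, a syndecan that binds FGFs, was called lower (-2.28 ± 0.56, limma adjusted p = 0.0159) and Glce, an epimerase of the chain, higher (1.28 ± 0.51, limma adjusted p = 0.0449). Sdc2 had 1.42, 0.478 and 1.36 in differentiated cultures, against 6.78, 4.5 and 3.46 in proliferating cultures, with no overlap. The list of 10 processing and binding partners included Igf2. Of that list the random-mouse fit called Nrp1, a coreceptor for VEGF, lower (-2.19 ± 0.50, limma adjusted p = 0.0152). Nrp1 had 0.309, 0.326 and 0.585, against 1.47, 2.84 and 1.33.

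**Figure D5:**
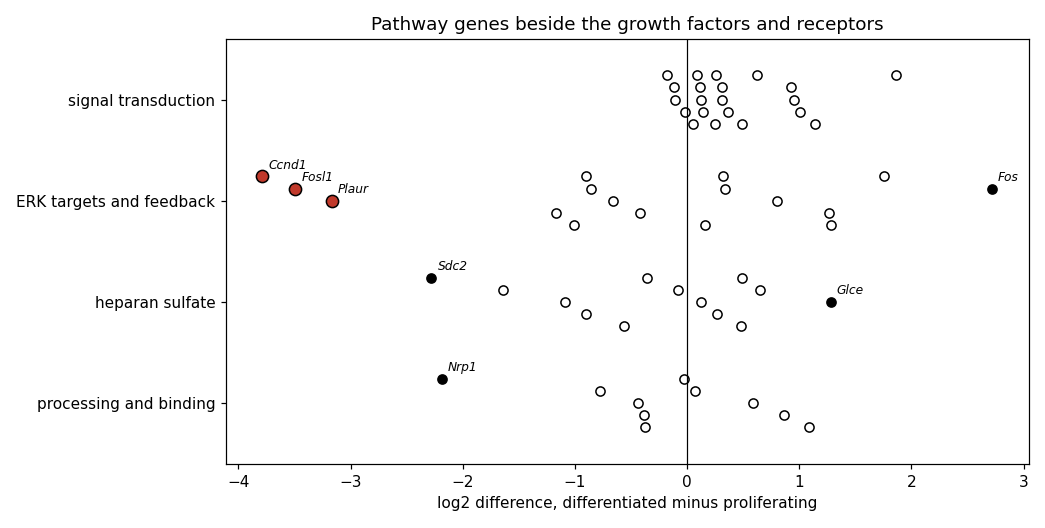
Each point is the log2 difference of 1 gene, differentiated minus proliferating, in 4 lists of pathway genes (21, 17, 13 and 10 measured), with vertical offsets only to separate points. Red points passed in limma without mouse in the model (Ccnd1, Fosl1 and Plaur), black points in the random-mouse fit alone (Fos, Sdc2, Glce and Nrp1), and open points in neither.

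Other cell types were followed by their markers because several receptors here are known from vessels and stroma. Of 5 endothelial markers 4 were dim in both groups, and their summed intensity was 0.282 to 1.01 in differentiated and 0.271 to 0.729 in proliferating cultures. Fibroblast markers (6) summed to 0.728 to 1.08, against 0.6 to 1.62, with 3 dim in both groups. Pericyte and smooth muscle markers (6) summed to 53.1 to 162, against 10.7 to 84.8, with 1 dim in both groups. Macrophage markers (4) summed to 0.336 to 1.15, against 0.439 to 1.40, with 2 dim in both groups. Those of mast cells (3) summed to 3.14 to 4.05, against 3.36 to 7.96, and were mostly Tpsb2 (3.08, 3.73 and 2.93, against 3.09, 6.6 and 3.44). Those of Schwann cells (2) summed to 7.52 to 15.2, against 5.97 to 7.02. That sum was nearly all Pmp22, with 7.31, 9.07 and 15.1 in differentiated cultures, against 6.63, 6.92 and 5.94 in proliferating cultures. The other Schwann marker, S100b, was dim in both groups. Most of the pericyte and smooth muscle sum was Acta2, with 146, 49.7 and 148 in differentiated cultures, against 80.1, 8.59 and 81.1 in proliferating cultures. In that list 3 differences were positive (Acta2 1.42, Cnn1 1.24 and Tagln 1.08) and 3 negative, and the random-mouse fit in limma called 1, Rgs5, lower (-1.90, adjusted p = 0.0412). Of the fibroblast markers 2 differences were positive and 4 negative. Twist2 was called lower in the random-mouse fit (-2.41, limma adjusted p = 0.0445), while Col1a2 was higher without overlap and did not pass (1.30, limma adjusted p = 0.0903 in that fit). The part of these cells in the growth factor results was not tested.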

How the data were processed

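RNA from 6 cultures was hybridised to 1-colour CodeLink arrays, 1 array per sample. The authors deposited linear intensities, some of them below 0, with array medians near 1. Per the labels' protocols, bacterial control mRNAs served intensity normalization; the software, background method and scaling are, in the sources used here, not given. The number of arrays limits the precision.

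Intensities under 0.0236, the 1st percentile of positive values, were set to it before log2, which touched 4 values of the 74 genes. Features with at least 2 values per group went into limma (version 3.58.1, R 4.3.3) through lmFit and eBayes with no term but group, at an adjusted p of 0.05. The platform annotation, matched by Entrez ID to GRCm38.p6, named 6373 of 10500 features. A pair of members without values was left out, and each member had 1 feature (for other genes, the feature of highest mean stood for the gene). Gene lists were read by counts and medians. The 16 genes with both means under 0.179 were treated as dim.

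Labels number the arrays by mouse, and by the design text both cultures came from each mouse. Deviations from the group means, compared between a mouse's arrays, correlated at 0.42, 0.367 and 0.283 over 10128 features. Arrays of different mice were not compared in this way, so the pairing rests on the labels and the design text. The consensus correlation for the random effect was 0.535. Nothing else says how separate the cultures were. In the fit without mouse, p-values measure the spread between the arrays of a group. In the fixed-mouse fit they measure the spread left after differences between mice are removed. The random-mouse fit allows for those differences through the 1 correlation of 0.535, used for every feature. All 3 fits rest on the same 3 mice.

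Members, lists and the naming rule were chosen with earlier results of these data known. Values on all arrays are given for members called in any of the 3 fits, for members without overlap at an unadjusted p under 0.05, and for a fixed panel; values of further members were added after seeing them. The fit was tested on simulated data. Alternatives covered the floor, scaling, filters, prior, threshold, pairing and left-out arrays.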

Additional observations from a re-analysis of the deposited data

How the results depend on the processing

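Across all features limma called 29 higher and 103 lower. Raising the floor to the 10th percentile gave 65 and 178, adding a pseudocount of 0.179 gave 127 and 266, and leaving out dim probes gave 67 and 190. They were 125 and 263 with a trended and robust prior, and 109 and 231 at an adjusted p under 0.1. Quantile normalization gave 162 lower, mouse as a fixed replicate block 57 higher, and mouse as a random replicate block 516 and 538. Leaving out 1 array or both arrays of a mouse gave 0 to 91 higher and 0 to 88 lower in limma, with 854 to 1583 features at an unadjusted p under 0.05.

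Of the 74 growth factor genes, limma called 0 higher and 0 lower, with 15 at an unadjusted p under 0.05. It called 2 higher and 1 lower with the 10th percentile floor, the pseudocount or no dim probes, 1 and 1 after quantile normalization, and 3 and 1 with the trended prior or at 0.1. The lower gene was Epha2 in each of these settings, with adjusted p of 0.0107 to 0.0416 at the 0.05 threshold. With mouse as a fixed replicate block it called 1 higher, and with mouse as a random replicate block 3 higher and 8 lower. Leaving out arrays gave 0 to 1 higher, the call being Fgfr3 without proliferating replicate 1, and 0 lower throughout.

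In settings added after seeing the data, the random effect fit called 3 to 4 genes higher. After quantile normalization it called 5 lower, of which 3 were among its 8 lower calls (Efna4, Epha2 and Ephb6) and 2 were not (Fgfr4 and Spred1). With 1 array left out it called 0 to 5 lower: 0 without differentiated replicate 1, 1 without proliferating replicate 1, 3 without proliferating replicate 2, 4 without differentiated replicate 3, and 5 without differentiated replicate 2 or proliferating replicate 3. The cause was not tested. It could not be fitted with 2 mice. Of the 22 genes followed through all settings, Igf1 was the one to change sign, at -0.10 without differentiated replicate 3, -0.42 without proliferating replicate 2 and -0.19 without mouse 2, within a range of -0.42 to 0.77 over all left-out arrays. Since every gene had 1 feature, averaging features of a gene changed 0 of these calls. Differences near the dim mark are limited by background.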
